A study of Mus musculus with 9 samples.

Results

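The genes described here were 10 members of the major histocompatibility complex (MHC) class I presentation pathway of the mouse: the classical heavy chain genes H2-K1 and H2-D1, the light chain gene B2m, the immunoproteasome subunit genes Psmb8, Psmb9 and Psmb10, the peptide transporter genes Tap1 and Tap2, the tapasin gene Tapbp, and the regulator gene Nlrc5. They were matched by gene name, and the set was chosen with earlier results of these data known. The deposited table listed 28379 genes, and all 10 members were among the 17002 genes that passed the filter on low counts.

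Nucleated cells display peptides from their own proteins on MHC class I molecules, where CD8 T cells can inspect them. Proteasomes cut the proteins, the TAP transporter moves the peptides into the endoplasmic reticulum, and tapasin helps to load them onto a heavy chain paired with β2-microglobulin. In the immunoproteasome, inducible catalytic subunits replace the constitutive ones, and interferons and NLRC5 are well-known inducers of the pathway. Macrophages and osteoclasts descend from the same myeloid precursors.

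RNA was sequenced from primary bone marrow-derived macrophages (BMDMs) that the study took from C57BL/6J mice of 10 weeks of age. All 3 groups had M-CSF, the macrophage growth factor, at 20 ng/ml, and were harvested after 48 h. The PBS group had no further factor. The RANKL group also had RANKL, the cytokine that drives osteoclast formation, at 100 ng/ml. The RANKL + Vit D + K group had RANKL with vitamin D (calcitriol) at 1000 nM and vitamin K (MK4), whose dose is 20 μM in the labels and 40 μM in the study's methods. Each group had 3 libraries, numbered 1 to 3. The methods speak of pooled RNA, and the number of mice or cultures behind a library was not given, so the p-values measure the spread between these libraries, which may be technical. No group had either vitamin alone or the vitamins without RANKL, so those effects cannot be told apart.

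Total counts were 65915112 to 68229647 reads per library. All 8 macrophage markers examined were detected in every group, with Adgre1, Csf1r and Cd68 among them. Of the 8 osteoclast markers, 8 rose with RANKL and 7 of those fell when the vitamins were added, and the summed level was 30.8 to 45.5 CPM (counts scaled to a fixed library total) in PBS, 1060 to 2190 in RANKL and 132 to 210 in RANKL + Vit D + K, where Calcr was at 0 as in PBS. With the vitamins, replicate 2 stood apart from the other two, with a first principal component score of 58.5 against 152 and 127. With RANKL alone, replicate 2 was at -25.9 on this component against -59.4 and -55.1, and at -81.03 on the second against -45.1 and -36.0. Each library was left out in turn, and several fold changes are also given without replicate 2 of the vitamin group.

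In GRCm38 coordinates, 7 of the 10 members lay on chromosome 17. Psmb9, Tap1, Psmb8 and Tap2 were neighbours within 34335 bases (chr17:34181987-34216321), and Psmb9 and Tap1, which are read in opposite directions, overlapped by 212 bases. H2-K1 (chr17:33996017-34000347), H2-D1 (chr17:35262730-35267499) and Tapbp (chr17:33915899-33926197) lay on the same chromosome. B2m (chr2:122147686-122153083), Psmb10 (chr8:105935735-105938104) and Nlrc5 (chr8:94434356-94527272) lay elsewhere.

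Promoter windows of 250 bases before to 50 bases after the RefSeq start (GRCm38.p6) were found for 8 of the 10 members, all but Tap2 and Nlrc5. Class I promoters are known for an X2 box and a Y box that bind a complex of regulatory factor X (RFX), CREB/ATF and NF-Y proteins, to which NLRC5 is recruited. The sequences below are shown because the heavy chain genes H2-K1 and H2-D1 and the light chain gene B2m shared the same spacing of these boxes. Any link between this spacing and the expression of the genes was not tested. Capitals mark the letters TGACG of the X2 core and ATTGG, the Y box CCAAT on the other strand, each read 5′ to 3′ in the direction of the gene.
H2-K1, chr17:34000359-34000388, minus strand: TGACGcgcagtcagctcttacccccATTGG
H2-D1, chr17:35262993-35263022, plus strand: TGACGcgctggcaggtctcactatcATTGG
B2m, chr2:122147609-122147638, plus strand: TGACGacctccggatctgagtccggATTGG

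In all 3 of these genes the starts of the letters lay 25 bases apart. That pair at that distance was looked for after the matches had been seen, and it occurred in 31 of 32851 promoter windows (0.0944%). The letters TGACG on either strand were found in the windows of 5 of 8 members (20.8% of all windows) and CCAAT on either strand in 6 of 8 (37.4%). The matches of Psmb9 and Tap1 were the same bases, read from either side of the region between them.

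The upstream stretches of the most abundant member, B2m, and of H2-K1 are shown with the matches to the other motifs searched, which were GAAANNGAA (core of the interferon-stimulated response element), TTCNNNGAA (gamma-activated site) and GGGNNTTCC (a form of the NF-kB site), all on both strands. Capitals mark the X2 core and Y box as before, GAAACTGAA in B2m and GGGGATTCC in H2-K1.
B2m, chr2:122147437-122147685, plus strand: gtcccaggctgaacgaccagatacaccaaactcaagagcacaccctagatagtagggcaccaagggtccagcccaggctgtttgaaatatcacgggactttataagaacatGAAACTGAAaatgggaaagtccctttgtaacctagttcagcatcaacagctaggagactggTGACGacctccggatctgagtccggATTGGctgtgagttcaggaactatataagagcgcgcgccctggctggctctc
H2-K1, chr17:34000348-34000597, minus strand: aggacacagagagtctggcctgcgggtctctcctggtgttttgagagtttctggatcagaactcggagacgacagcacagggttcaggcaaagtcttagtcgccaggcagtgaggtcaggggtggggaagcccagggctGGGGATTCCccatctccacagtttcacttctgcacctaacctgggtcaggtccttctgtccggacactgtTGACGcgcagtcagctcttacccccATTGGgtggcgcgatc

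GAAANNGAA occurred in the window of 1 of 8 members, B2m, and in 8.56% of all windows. TTCNNNGAA occurred in that of Psmb8 and in 8.3% of all windows, and GGGNNTTCC in those of H2-K1 and H2-D1 and in 5.82% of all windows. A match describes the letters of the window and is not evidence of binding.

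Levels were compared between genes as FPKM (fragments scaled to transcript length and to the reads of the library), which is per length. In the PBS group the order of mean FPKM was B2m, H2-D1, H2-K1, Tapbp, Psmb10, Psmb8, Tap2, Nlrc5, Tap1 and Psmb9, from 982 ± 46.6 down to 5.96 ± 0.299 (SD, n = 3). Among these neighbours, Psmb8 (16.8 to 17.9 FPKM) and Tap2 (16.2 to 17.5) overlapped, and the lowest B2m library was level with the highest H2-D1 library at 938 FPKM. B2m, H2-D1, H2-K1 and Tapbp kept the first 4 places in all 3 groups. Psmb10 went from the fifth place in the PBS and RANKL groups to the seventh in the RANKL + Vit D + K group.

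**Figure D1:**
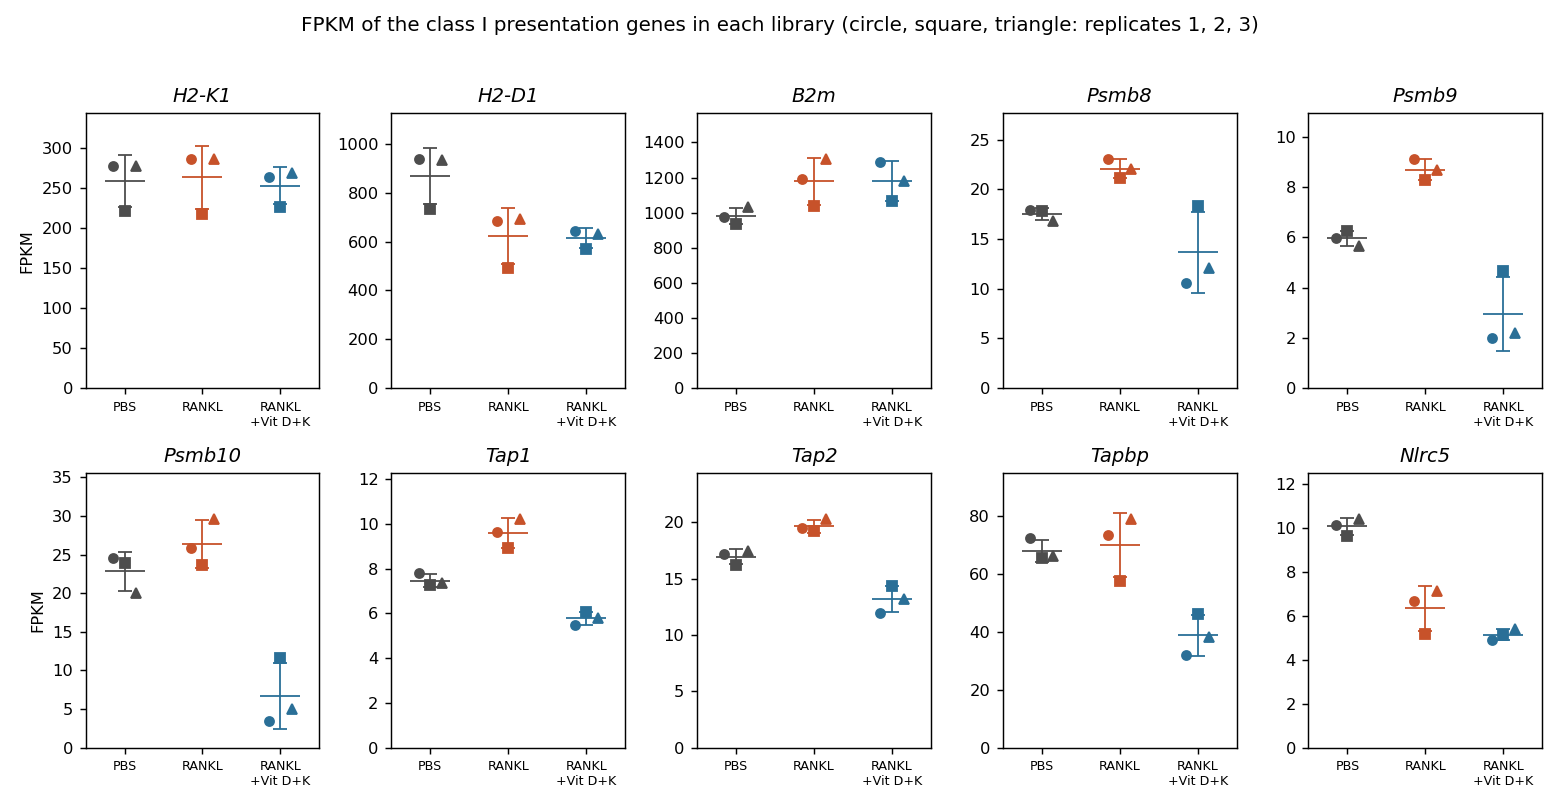
FPKM of each of the 10 genes (vertical axis, from 0, a separate scale for each gene) in the PBS, RANKL and RANKL + Vit D + K groups; each symbol is a library (circle, square and triangle for replicates 1, 2 and 3), and the bars give the mean and SD of 3 libraries. The RANKL + Vit D + K libraries of Psmb9, Psmb10, Tap1, Tap2 and Tapbp lie below all PBS and RANKL libraries, while those of H2-K1 (227 to 269) lie within the range of the other groups.

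The first comparison asked what RANKL changed in macrophages. Of the 10 members, 0 rose and 1, Nlrc5, fell with RANKL in edgeR's quasi-likelihood test (adjusted p under 0.05), where 2.35% of all genes tested were called higher and 1.26% lower. At an unadjusted p under 0.05 the members were 0 higher and 2 lower, and DESeq2 and limma on FPKM also called 0 higher and 1 lower. No share over all genes is given for an unadjusted p, here or below. The median log2 fold change of the members was 0.09, against -0.043 over all genes tested. The median over all genes was 0.078 when FPKM values of 13214 genes were compared with limma. When these 6 libraries alone were fitted with a block for the replicate number, a setting chosen after the data were seen, 1 member was higher (Psmb9) and 2 lower (H2-D1 and Nlrc5), where 1790 and 1291 of 16348 genes were called.

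Nlrc5 encodes the transactivator of class I genes. Its FPKM was 10.1, 9.63 and 10.4 in the PBS libraries and 6.69, 5.17 and 7.14 in the RANKL libraries. All 3 RANKL libraries lay below all PBS libraries, and the log2 fold change was -0.78 (SE 0.156, edgeR adjusted p = 0.0297). The call was lost when any of the 3 PBS libraries, RANKL replicate 1 or RANKL replicate 2 was left out (adjusted p 0.0574 to 0.135, log2 fold change -0.84 to -0.63) and was kept without RANKL replicate 3 (edgeR adjusted p = 0.044). With the vitamins the libraries had 4.87, 5.13 and 5.38 FPKM, a log2 fold change of -0.16 (SE 0.156, adjusted p = 0.453 in edgeR) against RANKL and -0.95 (SE 0.157, adjusted p = 0.00191) against PBS. The difference from RANKL passed when replicate 2 was left out of all 3 groups, a setting chosen after the data were seen (log2 fold change -0.25, edgeR adjusted p = 0.0392).

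H2-D1 encodes one of the classical heavy chains that present peptides to CD8 T cells. PBS libraries had 938, 734 and 934 FPKM and RANKL libraries 686, 492 and 693 FPKM. These groups did not overlap either, but replicate 2 was the lowest library in each, and the log2 fold change of -0.60 (SE 0.198) did not pass in edgeR (adjusted p = 0.142, unadjusted p = 0.0141). With the replicate number as a block, it was -0.61 and passed (adjusted p = 0.0149 in edgeR). The study states no such pairing, and the block rests on weak correlations between same-numbered PBS and RANKL libraries (r = 0.122, 0.219 and 0.155). Adding the vitamins gave 642, 569 and 632 FPKM, within the range of the RANKL libraries, with a log2 difference of 0.13 and a 95% interval of -0.32 to 0.57 (edgeR adjusted p = 0.656), or -0.01 when FPKM values were compared.

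H2-K1 is the other classical heavy chain gene examined. The PBS libraries had 278, 222 and 277 FPKM, the RANKL libraries 286, 218 and 286 and those with the vitamins 264, 227 and 269. All groups overlapped. RANKL differed from PBS by -0.09 on the log2 scale and the vitamins from RANKL by 0.09 (95% interval -0.33 to 0.51, edgeR adjusted p = 0.735), and the sign of each was opposite when FPKM values were compared (0.02 and -0.05).

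B2m encodes β2-microglobulin, the light chain shared by all class I molecules, and was the most abundant member. Its FPKM was 976, 938 and 1031 in PBS, 1193, 1035 and 1305 in RANKL and 1291, 1064 and 1179 in RANKL + Vit D + K. The RANKL and RANKL + Vit D + K libraries overlapped, with a log2 fold change of 0.15 and a 95% interval of -0.21 to 0.52 (edgeR adjusted p = 0.50). Against PBS the RANKL + Vit D + K group was at 0.30 (SE 0.163, adjusted p = 0.175 in edgeR), and at 0.43 (adjusted p = 0.0328) without RANKL + Vit D + K replicate 2. In FPKM, replicate 2 was the lowest library of each of the 3 groups for H2-K1, H2-D1 and B2m, and on CPM scaled between libraries this was also so for Tap1 and Nlrc5.

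None of the remaining 6 members passed the test for RANKL against PBS, although mean FPKM was higher with RANKL in each. Psmb9 was 5.99, 6.25 and 5.65 FPKM in PBS and 9.11, 8.30 and 8.66 in RANKL, with no overlap, at a log2 fold change of 0.42 (SE 0.242, adjusted p = 0.407 in edgeR over all 9 libraries). When only the 6 libraries of these groups were fitted, where the spread of the vitamin libraries did not enter, it was 0.47 and passed (edgeR adjusted p = 0.0247). Tap1 had a log2 fold change of 0.24 (adjusted p = 0.306), Psmb8 of 0.21 (0.499), Tap2 of 0.09 (0.699), Psmb10 of 0.09 (0.926) and Tapbp of -0.07 (0.861), all in edgeR. In FPKM, 5 members had RANKL libraries that all lay above PBS and 2 had them all below, where 22.4% and 12.9% of all genes tested did so. On TMM-normalized CPM (TMM, the trimmed mean of M values, is edgeR's scaling between libraries) these were 2 and 2, where 15.7% and 20.0% of all genes tested did the same.

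The second comparison asked what the vitamins changed in RANKL-treated cells, and it shares the RANKL libraries with the first. Here 0 of 10 members rose and 6 fell with the vitamins in edgeR, beside 16.4% of all genes tested called higher and 17.2% called lower. At an unadjusted p under 0.05 the same counts of 0 and 6 were found, as with DESeq2 and limma on FPKM. Only the 6 libraries of these groups were also fitted with a replicate block, although same-numbered libraries deviated together less here (r = 0.00625, 0.0428 and 0.107). In that fit 3 members were lower (Psmb9, Psmb10 and Tap1), and Tapbp, Tap2 and Psmb8 had adjusted p values of 0.064, 0.0686 and 0.0885 in edgeR. The members that fell in the fit of all 9 libraries were all 3 immunoproteasome subunits, both transporter chains and tapasin. Their median, with the other 4, was -0.50 on the log2 scale against -0.044 over all genes. The groups did not overlap on CPM for 6 members, all of them lower, where 25.4% of all genes tested were lower without overlap.

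**Figure D2:**
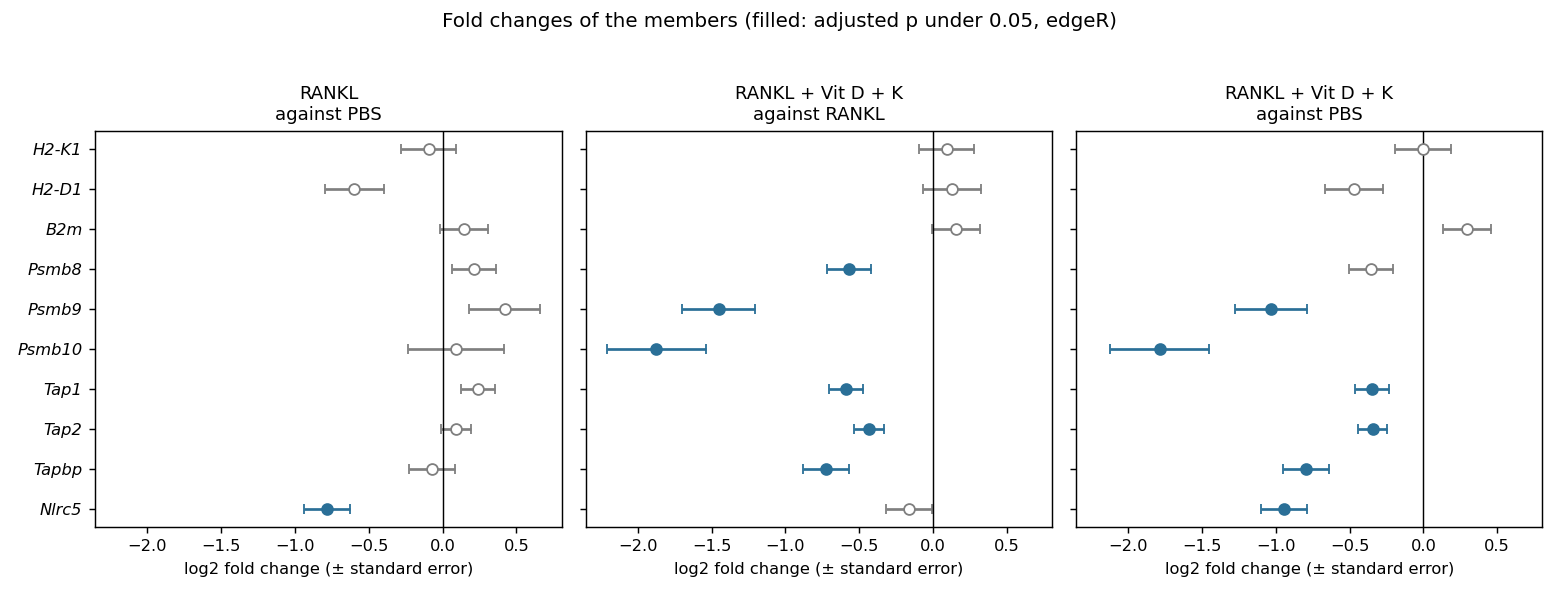
Log2 fold change (horizontal axis) of each of the 10 genes in each of the 3 comparisons, from the edgeR fit of all 9 libraries; bars are ± 1 standard error and filled points have an adjusted p under 0.05. The 6 filled points for RANKL + Vit D + K against RANKL run from -0.43 (Tap2) to -1.87 (Psmb10), and H2-K1, H2-D1 and B2m lie between 0.09 and 0.15 there (-0.05, -0.01 and 0.00 when FPKM values are compared).

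Psmb10 encodes the inducible subunit of the trypsin-like site and had the largest difference among the members. RANKL libraries had 25.9, 23.6 and 29.7 FPKM, and libraries with the vitamins 3.49, 11.6 and 5.04. All vitamin libraries were below all RANKL and PBS libraries (PBS 24.55, 23.97 and 19.97), and replicate 2 was the highest of the vitamin libraries. The log2 fold change was -1.87 (SE 0.335, adjusted p = 0.00409 in edgeR), and -2.41 without RANKL + Vit D + K replicate 2.

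Psmb9 encodes the inducible subunit of the caspase-like site. Against the RANKL values above, it was at 1.98, 4.64 and 2.19 FPKM in RANKL + Vit D + K, again with replicate 2 highest and no overlap with either other group. It fell by 1.45 on the log2 scale (SE 0.247, edgeR adjusted p = 0.00336), and the change was -1.84 without RANKL + Vit D + K replicate 2.

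Psmb8 encodes the inducible subunit of the chymotrypsin-like site. The libraries had 17.9, 17.8 and 16.8 FPKM in PBS, 23.04, 21.1 and 22.07 in RANKL and 10.6, 18.3 and 12.1 in RANKL + Vit D + K. Replicate 2 of the vitamin group was below every RANKL library but above every PBS library in FPKM, and below every PBS library on TMM-normalized CPM. Psmb8 fell by 0.57 on the log2 scale (SE 0.148, edgeR adjusted p = 0.0181), and the change was -0.75 without that library. This call was lost when only the 6 libraries of these groups were fitted (adjusted p = 0.055), without RANKL + Vit D + K replicate 1 (0.0599) or 3 (0.0785), and without RANKL replicate 1 (0.0715) or 3 (0.0623).

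The ratio of an inducible subunit to the constitutive subunit it replaces needs no scaling between libraries. Psmb10 to Psmb7 was 1.32, 0.838 and 1.57 in the RANKL libraries and 0.172, 0.466 and 0.240 in those with the vitamins. The Psmb9 to Psmb6 ratio was 0.259, 0.198 and 0.276 in RANKL and 0.0310, 0.0960 and 0.0445 in RANKL + Vit D + K. For Psmb8 to Psmb5 it was 0.250, 0.181 and 0.268, then 0.175, 0.140 and 0.162. Each vitamin library was thus lower than each RANKL library for all 3 pairs.

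In mean log2 ratio the vitamin group differed from the RANKL group by -2.17 for Psmb10 to Psmb7, -2.25 for Psmb9 to Psmb6 and -0.54 for Psmb8 to Psmb5. Without RANKL + Vit D + K replicate 2 these were -2.565, -2.702 and -0.445. They are given as a description, with no test. An exact permutation test of 3 libraries against 3 could not go below p = 0.1. Psmb6 itself rose with the vitamins, from 35.1, 42.0 and 31.4 FPKM to 64.0, 48.4 and 49.2, a log2 fold change of 0.74 (SE 0.164, adjusted p = 0.0094 in edgeR). Psmb7 was at 0.14 (adjusted p = 0.467) and Psmb5 at -0.01 (adjusted p = 0.985) on the log2 scale in edgeR.

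**Figure D3:**
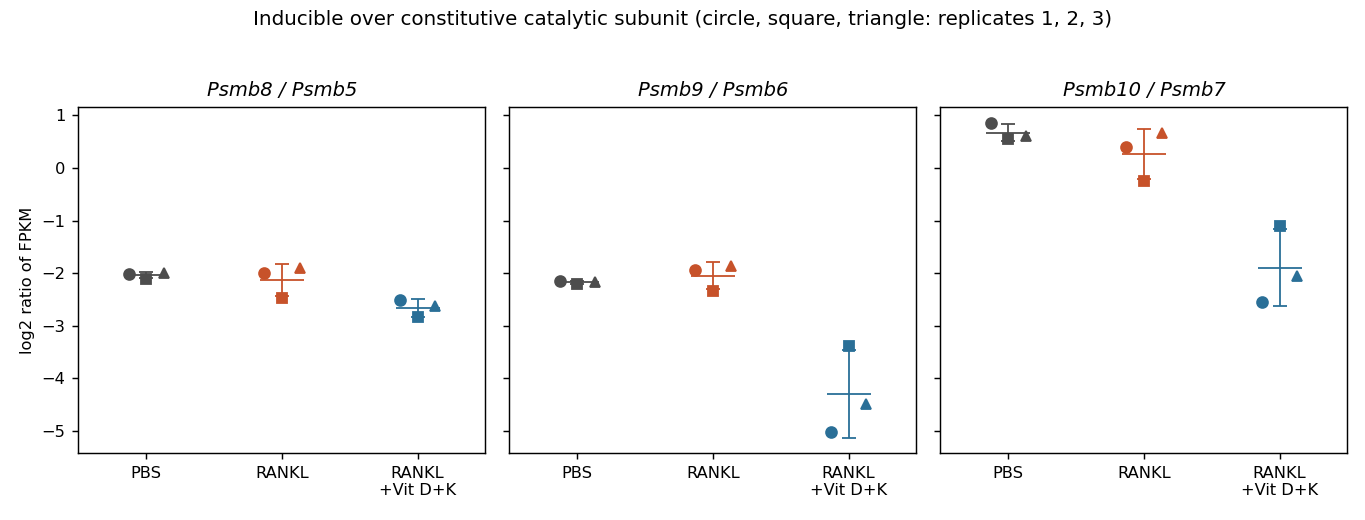
Log2 ratio of the FPKM of each inducible subunit to that of its constitutive counterpart (vertical axis) in each library of the 3 groups, with the mean and SD of 3 libraries; circle, square and triangle are replicates 1, 2 and 3. For Psmb9 to Psmb6 and Psmb10 to Psmb7 the vitamin libraries lie below all others, with replicate 2 the nearest to the RANKL libraries, and for Psmb8 to Psmb5 replicate 2 is the lowest library.

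Tap1 and Tap2 encode the chains of the peptide transporter. Tap1 was at 9.64, 8.91 and 10.2 FPKM in RANKL and 5.47, 6.06 and 5.81 in RANKL + Vit D + K, and Tap2 at 19.5, 19.2 and 20.3 against 11.99, 14.34 and 13.21. In both genes the vitamin libraries were below all RANKL libraries and, by less, below all PBS libraries (7.27 to 7.80 for Tap1 and 16.2 to 17.5 for Tap2). Tap1 fell by 0.59 on the log2 scale (SE 0.114, edgeR adjusted p = 0.0057) and Tap2 by 0.43 (SE 0.10, edgeR adjusted p = 0.0111). The Tap2 call was lost without RANKL replicate 3 (log2 fold change -0.38, adjusted p = 0.0519).

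Tapbp encodes tapasin, which bridges the transporter and the heavy chain. Its FPKM was 72.2, 65.3 and 66.1 in PBS, 73.4, 57.5 and 78.9 in RANKL and 32.0, 46.0 and 38.2 in RANKL + Vit D + K. The vitamin libraries lay below all others. The log2 fold change against RANKL was -0.72 (SE 0.156, adjusted p = 0.00852 in edgeR), and the call held in all 6 fits that left out a library.

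The third comparison set the RANKL + Vit D + K group against the PBS group and shares libraries with both others. Of the members, 0 were higher and 6 lower in edgeR, beside 19.8% and 21% of all genes tested. At an unadjusted p under 0.05, for which no share over all genes is given, the counts were 0 and 8. DESeq2 called 0 and 6, and limma on FPKM 0 and 7, H2-D1 being the further gene. Psmb10 was at -1.79 (SE 0.334, adjusted p = 0.00338), Psmb9 at -1.03 (0.245, 0.00974), Tapbp at -0.80 (0.156, 0.00413), Tap1 at -0.35 (0.114, 0.0369) and Tap2 at -0.34 (0.10, 0.0232), beside Nlrc5 above. H2-D1 was at -0.47 (adjusted p = 0.0847) and Psmb8 at -0.35 (adjusted p = 0.0834) in edgeR, and H2-K1 at 0.00 (adjusted p = 0.995). With the replicate block over all 9 libraries, H2-D1 was also called lower.

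Several of these calls changed when a library was left out. Tap1 and Tap2 kept theirs only without RANKL + Vit D + K replicate 2 (adjusted p = 0.0449 and 0.0173 in edgeR). Without any of the other 5 libraries, Tap1 had adjusted p values of 0.08 to 0.165 and Tap2 of 0.05 to 0.131. Psmb9 lost its call without RANKL + Vit D + K replicate 3 (-0.83, adjusted p = 0.0525 in edgeR), and Psmb8 passed without RANKL + Vit D + K replicate 2 (-0.53, adjusted p = 0.00198 in edgeR). Psmb10, Tapbp and Nlrc5 kept theirs in all 6 fits.

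The rest of the pathway was read from the same fit with 6 lists of 62 genes, of which 59 were tested. RANKL raised 1 of them and lowered 0, at medians from -0.33 to 0.305 for the 6 lists. That gene was Calr, which encodes the endoplasmic reticulum chaperone calreticulin, at 84.1, 97.7 and 93.8 FPKM in PBS and 159, 205 and 176 in RANKL (log2 fold change 0.84, SE 0.117, edgeR adjusted p = 0.0083). At an unadjusted p under 0.05 in edgeR the counts were 6 higher and 11 lower, with no share over all genes at that cut to set beside them. DESeq2 called 4 higher and 5 lower, where 1056 and 643 of 16313 genes were called. Limma on FPKM called 1 and 1, where 494 and 183 of 13214 genes were called. With the replicate block over all 9 libraries, edgeR called 2 lower, where 287 of 17002 genes were lower. With that block in a fit of these 6 libraries alone, 8 were higher and 10 lower, where 1790 and 1291 of 16348 genes were called. With the vitamins against RANKL, 9 of the 59 were higher and 19 lower, beside the 16.4% and 17.2% of all genes given above, so the share of higher genes was near that of all genes. Against PBS they were 11 and 26, beside 19.8% and 21%. The median over the 59 was -0.163 against RANKL, against -0.044 over all genes.

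The calls against RANKL were also made with each of the 6 libraries left out in turn. Of the 19 lower genes, 16 kept their call in every one of these fits, and of the 9 higher genes 3 did (Atf1, Nfya and Psmb6). The lower genes that lost it were H2-T23 (without RANKL + Vit D + K replicate 2 or 3 or RANKL replicate 1 or 3), Irf2 (without RANKL + Vit D + K replicate 3 or RANKL replicate 1 or 3) and Stat2 (without RANKL + Vit D + K replicate 3), at adjusted p values of up to 0.103, 0.0869 and 0.0517. The higher genes were Nfyb, which lost it in 5 of 6 fits (up to 0.137), Canx in 4 (0.0669), Tpp2 and Psmg2 in 3 (0.0551 and 0.0644), Erap1 in 2 (0.0683) and H2-Q4 without RANKL replicate 1 (0.0589), all in edgeR. Without RANKL + Vit D + K replicate 2, the library that stood apart, 17 genes of the 59 were higher and 21 lower. Calls over all genes rose too in that fit, to 3773 higher and 4486 lower of 17806 genes, from 2796 and 2929 of 17002.

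Among proteasome activators and assembly factors, 3 of 7 were lower and 1 higher with the vitamins against RANKL, at a list median of 0.233. Over all genes tested 17.2% were lower and 16.4% higher. DESeq2 called 3 lower and 2 higher, limma on FPKM 3 and 1, and an unadjusted p under 0.05 in edgeR 3 and 3. Psme1 and Psme2 encode the subunits of the PA28 activator that caps the immunoproteasome. Psme2 had 49.9, 60.3 and 51.0 FPKM in RANKL and 18.3, 34.7 and 19.6 in RANKL + Vit D + K, with no overlap, and fell by 1.02 on the log2 scale (SE 0.179, edgeR adjusted p = 0.0037). Psme1 fell by 0.59 (adjusted p = 0.0045) and Pomp, the maturation protein of the proteasome, by 0.72 (adjusted p = 0.0086), both in edgeR. Psmg2, an assembly chaperone, rose by 0.79 (SE 0.199, edgeR adjusted p = 0.0156). In Psme2 and Pomp the highest vitamin library was again replicate 2, and without it the differences were -1.28 and -0.92.

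Of the 8 peptide loading and trimming genes, 3 were higher and 0 lower against RANKL in edgeR (median 0.382), beside 16.4% and 17.2% of all genes tested. DESeq2 also called 3 and 0, and an unadjusted p under 0.05 or limma on FPKM 3 and 1, the lower gene being Calr. Canx, the chaperone calnexin, was at 0.47 (adjusted p = 0.0187), the trimming peptidase gene Erap1 at 0.51 (0.0169) and the cytosolic peptidase gene Tpp2 at 0.68 (0.0148). Calr was at -0.29 (adjusted p = 0.084) and the tapasin relative Tapbpl at 0.29 (0.228). Tapasin thus fell where the 3 genes named first rose.

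Other class I and class I-like heavy chains were divided, with 1 of 14 tested higher and 6 lower against RANKL (median -0.415), beside 16.4% and 17.2% of all genes. Of the 17 listed, H2-Q2 and Cd1d2 did not pass the filter and H2-T3 was not in the table. H2-T24 fell from 9.13, 4.01 and 11.5 FPKM to 0.626, 1.24 and 0.552 (log2 fold change -3.25, SE 0.442, edgeR adjusted p = 0.0014). H2-T23, which encodes the Qa-1 molecule read by natural killer cell receptors, went from 57.8, 31.5 and 72.5 to 27.0, 20.9 and 24.6 FPKM (-1.01, SE 0.295, edgeR adjusted p = 0.0274, and -0.86 with adjusted p = 0.0518 without RANKL + Vit D + K replicate 2), and H2-T22 was at -0.87 (edgeR adjusted p = 0.0045). In FPKM none of these 3 genes had vitamin libraries that reached a RANKL library, but on TMM-normalized CPM the groups overlapped for H2-T23.

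Of the relatives that do not present peptides to CD8 T cells, Fcgrt, Hfe and Cd1d1 fell, while Mr1, which presents small metabolites, was at -0.48 (edgeR adjusted p = 0.146). Fcgrt, the heavy chain of the neonatal Fc receptor, had 31.2, 13.4 and 27.3 FPKM in RANKL and 2.966, 3.439 and 3.999 in RANKL + Vit D + K (-2.65, SE 0.312, edgeR adjusted p = 0.000864). Hfe, a regulator of iron uptake, fell by 1.85 (adjusted p = 0.0011) and Cd1d1, which presents lipids, by 1.49 (adjusted p = 0.0043), both in edgeR. H2-Q4 was the 1 gene called higher in edgeR (DESeq2 called 3), at 9.993, 10.98 and 13.25 FPKM in RANKL and 27.8, 13.9 and 24.9 in RANKL + Vit D + K (1.13, SE 0.277, edgeR adjusted p = 0.014, and 1.42 without RANKL + Vit D + K replicate 2). Without that library H2-Q6, H2-Q7 and H2-Q10 passed too, so 4 of the list were higher. The genes of the H2-Q and H2-T families resemble each other closely, and how the authors' counting split reads between them was not given.

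Of the 14 class I promoter factors, 3 were higher and 5 lower against RANKL (median -0.194), beside 16.4% and 17.2% of all genes tested. Rfx5 and Rfxap encode subunits of the RFX complex that binds the X box. Rfx5 had 4.16, 4.51 and 3.92 FPKM in RANKL and 0.982, 2.67 and 1.81 in RANKL + Vit D + K (-1.09, SE 0.253, edgeR adjusted p = 0.0114, and -1.37 without RANKL + Vit D + K replicate 2), and Rfxap was at -0.91 (edgeR adjusted p = 0.0026). Atf1, a factor of the CREB/ATF family, rose by 1.65 (adjusted p = 0.0017), and the NF-Y subunit gene Nfya by 0.54 (0.0051), both in edgeR. Nfyb, another subunit of NF-Y, was at 0.68 (edgeR adjusted p = 0.0413), but at 0.57 (0.0753) without RANKL + Vit D + K replicate 2, and limma on FPKM did not call it.

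Interferon regulatory factors and the class II transactivator were in the same list. Irf1, an activator of class I and immunoproteasome genes, had 15.3, 12.6 and 17.6 FPKM in RANKL and 6.78, 4.83 and 6.63 in RANKL + Vit D + K (-1.16, SE 0.214, edgeR adjusted p = 0.0046), and Irf2 was at -0.50 (edgeR adjusted p = 0.022). Ciita, which encodes the transactivator of MHC class II, had 11.1, 3.89 and 12.4 FPKM in RANKL and 0.0491, 0.121 and 0.0920 in RANKL + Vit D + K, where the counts were 35, 89 and 67 reads. It fell by 6.59 on the log2 scale (SE 0.568, edgeR adjusted p = 0.000302). Nlrc5, its relative for class I, differed by -0.16 in the same comparison, as given above.

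Of the 13 interferon receptor and signalling genes, 0 were higher and 5 lower against RANKL in edgeR (median -0.392), beside 16.4% and 17.2% of all genes tested. The counts of this list were 1 and 7 at an unadjusted p under 0.05, 1 and 6 with DESeq2 (Socs3 the higher gene) and 0 and 8 with limma on FPKM. Irf9 and Stat2 encode transcription factors that act together downstream of the type I interferon receptor. Irf9 had 9.71, 9.65 and 9.06 FPKM in PBS, 10.49, 8.91 and 12.1 in RANKL and 1.88, 4.11 and 2.23 in RANKL + Vit D + K, and the vitamin libraries were below all others (-1.83, SE 0.237, edgeR adjusted p = 0.0012, and -2.14 without replicate 2 of the vitamin group). Stat2 was at -1.03 (adjusted p = 0.0132) and Usp18, an interferon-induced brake on the receptor, at -3.40 (0.000736), both in edgeR. Ifngr1, the ligand-binding chain of the interferon-γ receptor, fell by 1.16 (adjusted p = 0.0015) and the receptor kinase gene Tyk2 by 0.86 (0.0035), while Ifngr2, Ifnar1, Ifnar2, Jak1 and Jak2 did not pass in edgeR (adjusted p 0.0656 to 0.973). Without RANKL + Vit D + K replicate 2, 3 genes of this list were higher (Socs3 at 1.91, Jak1 at 0.38 and Stat3 at 0.42, with adjusted p of 0.00157, 0.015 and 0.03 in edgeR) and 6 lower, Ifnar1 being the further one at -0.55 (0.0041).

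**Figure D4:**
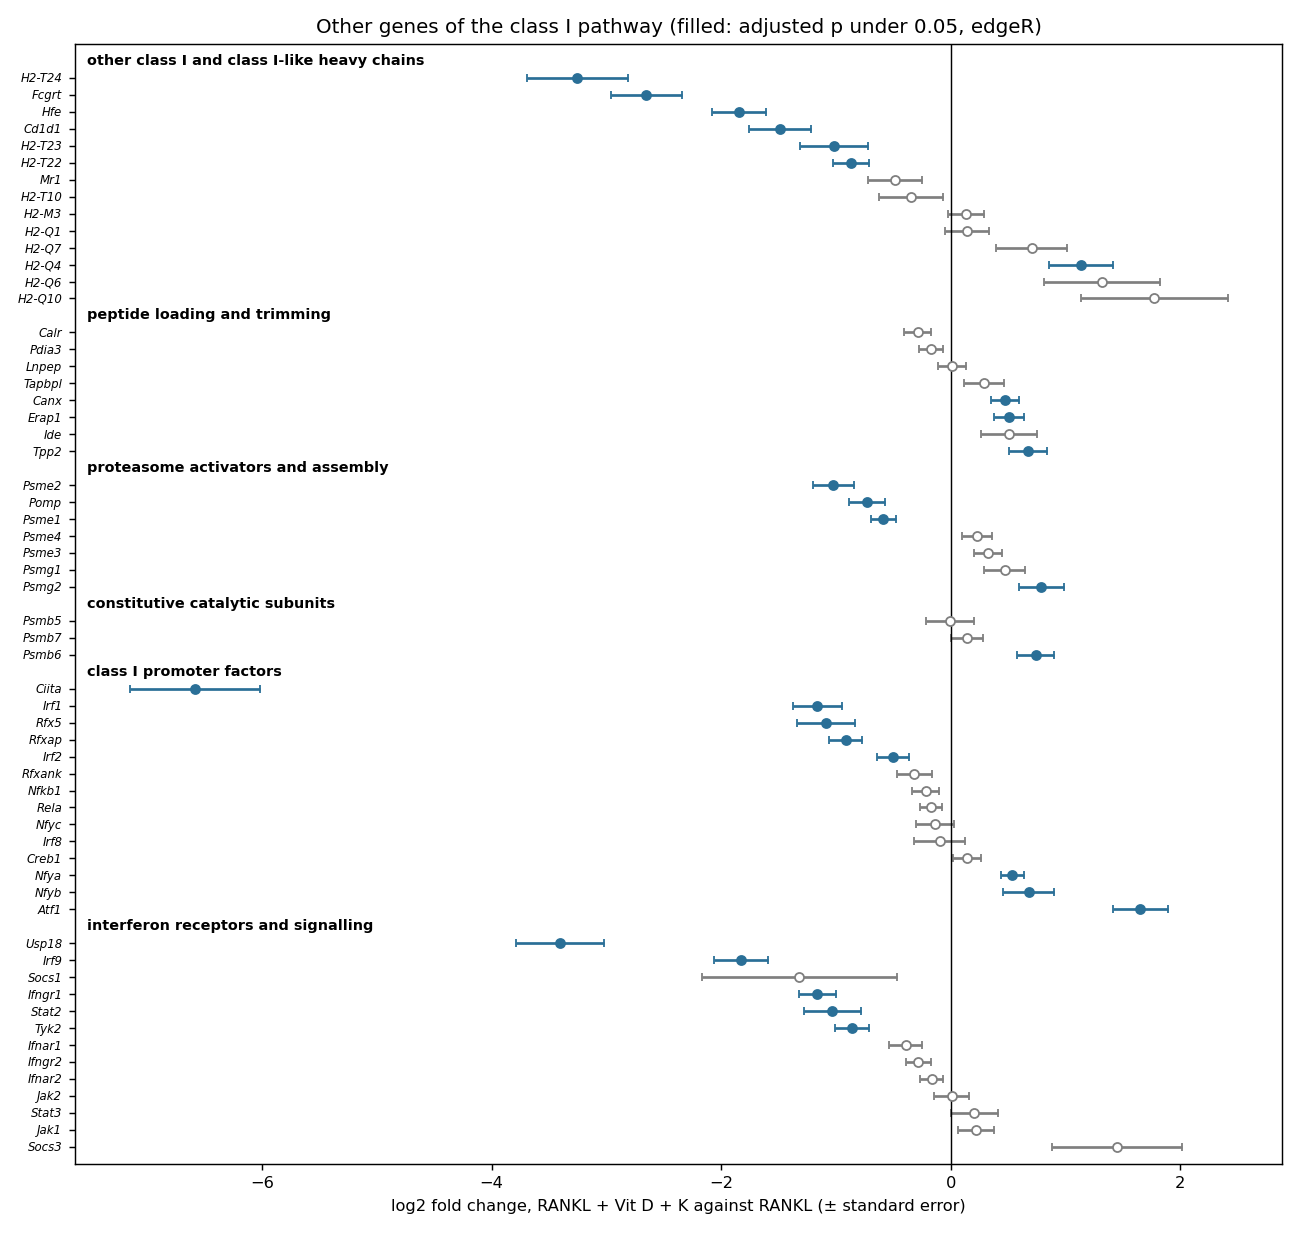
Log2 fold change of RANKL + Vit D + K against RANKL (horizontal axis) for the 59 tested genes of the 6 lists, grouped by list; bars are ± 1 standard error and filled points have an adjusted p under 0.05 in edgeR. The 19 genes that were lower run down to -6.59 (Ciita), and the 9 that were higher reach 1.65 (Atf1).

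Markers of cell types moved with the same comparison. Of 8 macrophage markers, 6 were lower and 1, Cd68, was higher with the vitamins against RANKL, and their summed level was 45200 to 54100 CPM in PBS, 25300 to 39700 in RANKL and 9420 to 18400 in RANKL + Vit D + K. Most of each sum was Lyz2, at 2391288 to 2735980 reads per library in PBS, 1474117 to 2267956 in RANKL and 313596 to 1030066 in RANKL + Vit D + K. The 8 neutrophil markers summed to 9.22 to 108 CPM in PBS, 8.67 to 110 in RANKL and 0.515 to 1.35 in RANKL + Vit D + K, where 5 of the 7 tested were lower and Ly6g, Mpo, Elane, Retnlg and Camp were at 0. For 8 dendritic cell markers the sums were 4.32 to 5.77, 12.1 to 13.6 and 34.3 to 48.4 CPM, but with the vitamins nearly all of the sum was Itgax, at 2417 to 2848 reads per library. Of the 7 tested, 1 (Itgax) was higher and 2 lower against RANKL at a median of -2.252, and Flt3, Cd209a and Siglech were at 0 with the vitamins. The stromal markers summed to at most 5.11 CPM, the B cell markers in the table to at most 1.15 and those of natural killer cells to at most 0.352, and 2 of 4 stromal markers tested (Pdgfrb and Col1a1) and the B cell marker Cd79b were lower with the vitamins against RANKL. Of the T cell markers the table held only Cd4, at 1.54 to 3.02 CPM in PBS, 9.45 to 16.4 in RANKL and 0.386 to 1.07 in RANKL + Vit D + K, and it was higher with RANKL (2.35, edgeR adjusted p = 0.0199) and lower with the vitamins against RANKL (-3.96, edgeR adjusted p = 0.000767). The part of these cell types in the results was not tested. In bulk RNA, fewer cells of a type and less RNA per cell cannot be told apart.

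The strand setting of the authors' counting was not given, so reads could not be told apart where genes overlap on opposite strands. Tapbp and Zbtb22 overlap by 3422 bases on the same strand, where a strand setting would not separate reads. All of B2m lies within the span of Patl2, all of Psmb10 within that of Gm16156, and Tapbp (with Zbtb22 and Gm19412), Psmb8, Tap2 and Nlrc5 overlap other annotated genes. Among stretches of 150 bases of the members' transcripts, the read length, those found word for word in another gene's transcripts were 1.79% for H2-D1 (in H2-Q1), 5.24% for Psmb9, 2.25% for Tap1, 0.668% for Tap2 and 8.73% for Tapbp, and 0 for the other 5 members.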

How the data were processed

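The processed table held, for each gene, deposited counts of reads (not normalized) and deposited FPKM values, which the authors scaled to transcript length and library size. The submitters' processing notes name cutadapt 1.9, HISAT2 2.0.4, StringTie 1.3.4d and edgeR. They name the human build hg38, but 96.1% of the 28294 gene IDs found in the mouse GENCODE M21 annotation (GRCm38) had its chromosome, strand and an equal start or end, so GRCm38 is used here. The authors' strand setting is not given in the sources used here.

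The members and gene lists were chosen with earlier results of these data known. Counts were tested with edgeR 4.0.16 (R 4.3.3, with filterByExpr, TMM, glmQLFit and glmQLFTest) over all 9 libraries. Benjamini-Hochberg adjustment was over 17002 genes, with a threshold of 0.05. The steps were checked on simulated counts for RANKL against PBS. There edgeR called 31 of 100 genes changed 2-fold, 76 of 100 changed 4-fold and 7 of 16220 unchanged genes. Alternatives used DESeq2 1.42.0, limma 3.58.1 on log2(FPKM + 0.1), and further settings. Named were all members, genes of the lists (at most the 4 with the smallest p in each list and comparison, and those whose role was needed) and the 5 genes most like the members' mean. Replicates with the same number deviated together in the RANKL and PBS groups (r = 0.122, 0.219 and 0.155 across genes). The numbers were taken as pairs there for this reason alone, since the study states no pairing.

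With totals of 65915112 to 68229647 reads, counts of the members were 447 or more in every library, so the spread between libraries, not counting error, sets the precision. No sample column was left unused. Of the genes first listed, 1 is not reported here.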

Additional observations from a re-analysis of the deposited data

How the results depend on the processing

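Counts are of genes called. For RANKL against PBS, members higher were 0 and became 1 when only the 2 groups were compared, with or without the replicate block, and when replicate 2 was left out of all 3 groups. Members lower were 1 and became 2 with the replicate block in both fits and without replicate 2, and 0 to 1 when a library was left out. The other pathway genes were 1 higher and 0 lower, and became 4 and 5 with DESeq2, 3 and 4 in the fit of 2 groups, 8 and 10 in that fit with the block, and 6 and 7 without replicate 2, while 2 were lower with the block and 1 or 2 with limma on log2(FPKM + 0.1) or log2(FPKM + 1). For RANKL + Vit D + K against RANKL, the 6 members lower became 3 in the fit of 2 groups with the block and 4 to 6 without a library. The 9 other genes higher became 20 without replicate 2, 1 in the fit of 2 groups with the block and 3 to 17 without a library, where the 3 is without RANKL replicate 1, 5 without RANKL or vitamin replicate 3 and 17 without vitamin replicate 2, and the 19 lower became 11 with that block. Against PBS, members higher became 1 without replicate 2 and 0 to 1 without a library, the 6 lower became 3 to 7 (3 without vitamin replicate 3), and the 11 other genes higher became 6 in the fit of 2 groups with the block. The cause was not tested. Signs turned only for small differences. H2-K1 turned from -0.094 to 0.022 and Tapbp from -0.074 to 0.032 (0.031 with log2(FPKM + 1)) with limma in RANKL against PBS, and Tapbp to 0.037 without replicate 2. In RANKL + Vit D + K against RANKL, limma turned H2-K1 from 0.092 to -0.051 and H2-D1 from 0.126 to -0.006. Against PBS, H2-K1 turned from -0.002 to 0.007 with DESeq2 or median-of-ratios factors, 0.017 with no filter and 0.015 without replicate 2. Without 1 library in turn, the ranges were -0.18 to 0.056, -0.057 to 0.226 and -0.071 to 0.131 for H2-K1 in the 3 comparisons, -0.047 to 0.241 for H2-D1 in the second, and -0.028 to 0.202 for Psmb10, -0.194 to 0.08 for Tapbp and -0.20 to 0.084 for the log2 ratio of Psmb8 to Psmb5 in the first.

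Over all genes, RANKL against PBS gave 400 higher and 214 lower, 1056 and 643 with DESeq2, 1034 and 702 in the fit of 2 groups, 1790 and 1291 in that fit with the block, 304 and 122 with no filter (410 and 122 with limma), 987 and 753 without replicate 2, and 96 to 227 and 30 to 89 without a library. RANKL + Vit D + K against RANKL gave 2796 and 2929, 2093 and 3457 with limma on FPKM, whose median over all genes was -0.129, 1934 and 1912 in the fit of 2 groups, 959 and 982 in the fit of 2 groups with the block, 4233 and 4719 without replicate 2, and 1578 to 3773 and 1621 to 4486 without a library (the highest without vitamin replicate 2). RANKL + Vit D + K against PBS gave 3368 and 3564, 2340 and 2354 in the fit of 2 groups with the block, and 2469 to 4143 and 2297 to 4725 without a library. In the comparisons with the vitamin group, same-numbered libraries deviated together less (r of -0.0216 to 0.107). The block over all 9 libraries left 6 members lower against RANKL and 7 against PBS, H2-D1 being the further one. The fits without replicate 2, of 2 groups with the block, and the other settings for pathway genes except DESeq2 and the block were chosen after the data were seen.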

Other observations

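Over the 9 libraries, the genes outside the lists whose log2 CPM was most like the mean standardised log2 CPM of the 10 members were F830016B08Rik, Ifi204, Sirpb1c, Sirpb1a and Isg20, with Pearson r of 0.984, 0.981, 0.975, 0.974 and 0.972. The likeness is a description. The mean is not a pattern that all members shared. Across these libraries B2m had r of -0.502, -0.552 and -0.613 with Psmb8, Psmb9 and Psmb10, while Psmb9 and Psmb8 had 0.977. All values share the same 9 libraries, which fall into 3 treatment groups, and the genes were picked for it from all 17002 tested. Ifi204 and Isg20 are known as interferon-inducible genes, and Sirpb1a and Sirpb1c encode signal-regulatory proteins of myeloid cells. Since the members' mean was lower in every vitamin library, the lower level of these genes in that group followed from the choice, and no test of it is given.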
